A study of Homo sapiens with 9 samples.

Results

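Broad KAS peaks inside protein-coding genes are stretches of at least 500 bases over which single-stranded DNA was captured, with the highest point of the peak (its summit) inside a RefSeq protein-coding gene. They were selected on their length in the KAS peak list and on position, since peaks whose summit lay no more than 1 kb from either end of any such gene were left out. By this rule there were 845 broad peaks, 5.69% of the 14841 KAS peaks in that class of position. The other 13996 peaks of the class were shorter than 500 bases and are called short peaks. In the KAS list used here, which begins at peak number 1951, 2622 of 34247 peaks, or 7.66%, had at least 500 bases.

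The material was DNA of HL-60, a leukaemia line of human promyelocytes, differentiated towards neutrophil-like cells and induced with phorbol myristate acetate (PMA) for 4 h to release neutrophil extracellular traps. KAS-seq used 5 mM N3-kethoxal for 10 min on such a culture, in 1 library, and its label gives no thrombin and refers back to the induction of the other samples for the dose of PMA. For comparison there were 4 pulldown libraries, made with biotinylated thrombin (1 µM for 1 h) after induction with 500 nM PMA for 4 h. The matching 4 input libraries were not analysed here. All libraries come from the same line, with no uninduced cells among those analysed, and the deposited lists give no read totals, so depth is unknown.

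N3-kethoxal reacts with guanines that are not paired in a double helix, and the tagged DNA is then biotinylated and captured. In living cells such DNA is known from transcription bubbles, R-loops, replication and melted or folded repeats. In extracellular traps chromatin is decondensed and partly cleaved. GC-rich tandem repeats of short units, called minisatellites, are known to be frequent near human chromosome ends. The lists hold no strand and no expression values, and KAS has 1 library, so the comparisons below set peaks of that library against each other, not conditions.

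Only stretches of broad peaks that lie in RefSeq promoter windows, 250 bases before to 50 after an annotated start, could be read, because a genome sequence was not used here. Windows of 1 chromosome were not used here, and of the 814 broad peaks on the others 3 touched a window (0.369%, exact 95% interval 0.0761% to 1.07%), and 50 of 13450 short peaks did (0.372%, interval 0.276% to 0.490%). The stretches upstream of a start are shown for 2 broad peaks, to let the base content under a broad peak be seen. Both are written 5′ to 3′ on the strand of the annotated start, with every guanine, the base that N3-kethoxal tags, in capitals.
CHLSN peak, stretch before the lncRNA LOC124901570, plus strand: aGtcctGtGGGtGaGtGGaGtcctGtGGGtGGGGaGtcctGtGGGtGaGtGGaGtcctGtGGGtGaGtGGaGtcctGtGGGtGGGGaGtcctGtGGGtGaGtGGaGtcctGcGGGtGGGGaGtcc
PHLDB1 peak, stretch before the lncRNA LOC124902765, minus strand: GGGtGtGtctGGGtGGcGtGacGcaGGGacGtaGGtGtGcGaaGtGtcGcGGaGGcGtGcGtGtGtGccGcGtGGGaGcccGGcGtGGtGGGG

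The first stretch, of 125 bases at chr7:1003909-1004033 of GRCh38.p14, ends a broad peak of 1365 bases inside CHLSN, with an authors' fold enrichment of 7.41. It holds 64 G and 17 C on the strand shown. Of its bases that have another base of the stretch 52 positions further on, 90.4% equal that base. This was the best of the shifts of 5 to 60 bases, over which the median was 32.6%. The stretch is thus a tandem repeat whose G and C are spread unequally over the strands. The second, of 93 bases at chr11:118608669-118608761, begins a peak of 864 bases inside PHLDB1 with a fold of 5.42, and has 50 G and 17 C but a best shift identity of only 53.7%. The third window belongs to a start of MAP3K12, a stress-activated kinase, and 30 of its bases lay in a peak of 602 bases. The letters ATTCC, searched on both strands because the series concerns repeats of that unit, were in none of the 3 windows, against 36.4% of all 35116 windows. These are single windows and describe no other broad peak.

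The length of 500 bases falls on the smooth tail of the length distribution. Broad peaks had a median length of 618 bases and a maximum of 3029, and 102 of them reached 1000 bases, whereas short peaks had a median of 238 bases. At the threshold itself, 30 peaks of 500 to 504 bases had a median fold of 5.35 and a median pileup of 10.5 reads. The 24 peaks of 495 to 499 bases had a median fold of 5.41 and a median pileup of 11. Just inside lay peaks in CHCHD6 (fold 9.18), ZC3H7B (7.41), CHLSN (7.36), GALNT2 (7.25) and EXD3 (6.91). Just outside lay peaks in LRCOL1 (9.84), TLCD5 (9.18), RBFOX1 (7.77), ARHGEF3 (7.30) and CHEK2 (6.74). Peaks on either side of the threshold thus had like heights.

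**Figure D1:**
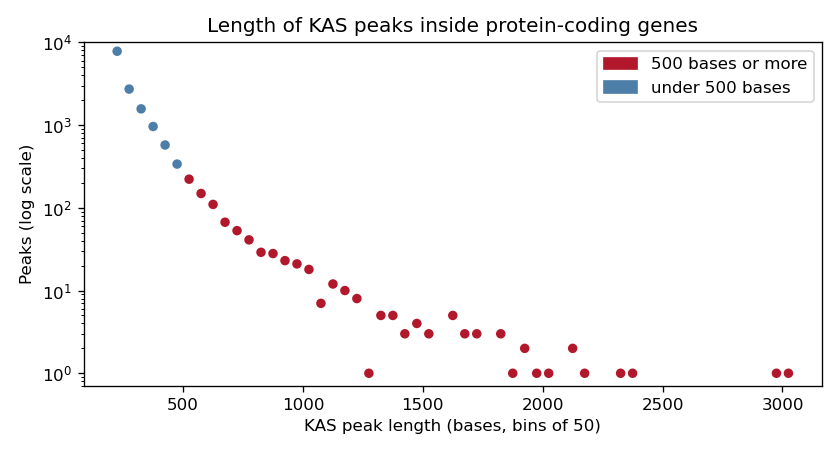
Number of KAS peaks (log scale) in each 50-base class of length for the 14841 peaks inside protein-coding genes and over 1 kb from their ends. Red points are the 845 peaks of 500 bases or more and blue points the 13996 shorter ones; the counts fall without a step at 500 bases.

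Broad peaks were also taller. Their median pileup, the read height at the summit, was 12 reads (quartiles 10 and 16, range 6 to 199), and that of short peaks was 9 reads (quartiles 8 and 11, range 6 to 119). The authors' fold enrichment, the summit height over the peak caller's background, had a median of 6.18 in broad peaks (range 3.05 to 17.7) and 5.39 in short peaks (range 2.35 to 26.3). Length and height come from the same reads, so this is a description of what the rule selected. Among broad peaks, fold and length were loosely related (Spearman rho 0.28 over 845 peaks of 1 library), and the median fold was 5.70 for peaks of 500 to 599 bases and 7.56 for those of 1000 to 1499 bases. Most broad peaks are modest, since only 42 of them reached a fold of 10 and only 15 a pileup of 50.

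The peak of highest fold lay in TERT, the catalytic subunit of telomerase. It ran over 1223 bases (chr5:1272561-1273783) in the middle of the gene, with a pileup of 66 reads and a fold of 17.7. LHPP, a phosphatase gene, followed with a peak of 711 bases at 97.7% of the way along the gene (fold 16.6, pileup 31). The MAP3K12 peak named above had a fold of 15.8 and a pileup of 34, with its summit 0.458 kb from an annotated start inside the gene. A peak of 587 bases in SOD2, the mitochondrial superoxide dismutase gene, had a fold of 13.5. Next came HMCN2, a gene of the hemicentin family of extracellular matrix proteins (13.3), SNPH, whose product anchors mitochondria in axons (12.8), and BCL2, an inhibitor of apoptosis (12.6).

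The BCL2 peak was also long, at 1469 bases (chr18:63198309-63199777), and lay 110 kb from the nearest annotated start. APBA2, an adaptor that binds the amyloid precursor protein, and LMF1, which matures lipases, each had a peak with a fold of 12.5 and a pileup of 29. EHMT1, a histone H3 methyltransferase, had a peak of 545 bases with a fold of 12.2. The other 10 of the 20 peaks of highest fold lay in ZC3H3, SORCS2, RAB11FIP3, NAV1, BPHL, NFATC1, TNS1, KCNN3, KLHDC4 and TOP1MT, with folds from 11.39 to 11.97. These genes belong to no single family, and 10 of the 20 peaks lay within 5 Mb of a chromosome end.

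The longest peak, of 3029 bases (chr22:48582306-48585334), lay in TAFA5, which encodes a secreted chemokine-like protein, and had a fold of 7.93 with a pileup of 18. RILPL1, a gene for a partner of Rab proteins, held one of 2962 bases (chr12:123510311-123513272) with a fold of 9.84. CEP72, a centrosome component, held one of 2397 bases with a pileup of 32. MLXIP, a glucose-responsive transcription factor, held one of 2345 bases, and GRM4, a metabotropic glutamate receptor, one of 2179 bases. MAG, a myelin glycoprotein, held one of 2148 bases with a fold of 10.9. The remaining 14 of the 20 longest, from 2117 bases in LOC124900586 to 1663 bases in SLC30A4-AS1, included LYPD8, BAHCC1, XKR7, COL5A1, MCF2L, ZNF511-PRAP1, EIPR1, PPP6R2, COQ8A, PTPRN2, MARCHF10 and PRDM15. Of the 20 longest peaks, 12 lay within 5 Mb of a chromosome end, and none of the 20 was among the 20 of highest fold.

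**Figure D2:**
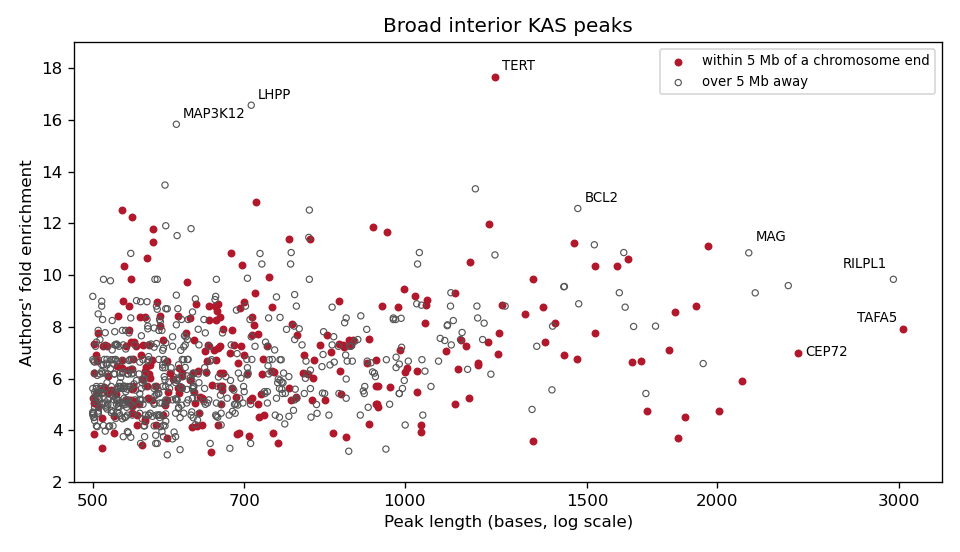
Authors' fold enrichment against peak length (log scale) for the 845 broad peaks, 1 point per peak. Filled red points lie within 5 Mb of a chromosome end and open points farther away; the TERT peak is highest, at 17.7, and the TAFA5 peak is longest, at 3029 bases.

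For all gene counts, each peak was assigned to 1 protein-coding gene, the shortest that held its summit. So assigned, the 845 broad peaks lay in 678 genes, 3.38% of the 20050 protein-coding genes. Of these, 568 held 1 broad peak, 110 held more than 1, and 152 held no short peak. PTPRN2, which encodes a phosphatase-family protein of secretory vesicles, held 15 broad and 27 short peaks over 1049 kb of chromosome 7. Its broad peaks were 511 to 1713 bases long, with folds from 3.84 to 9.45, and all 15 lay between 0.794 and 1.69 Mb from the chromosome end. Each was separated from the next broad peak by at least 1209 bases, so they form a string of separately called broad peaks over 896 kb. Short peaks lay between some of them, and whether the peak caller cut up longer regions was not tested. Within the string, a broad peak of 1713 bases had a pileup of 90 reads. Short peaks beside that peak had pileups of 66 and 84, whereas the median over the broad peaks of the gene was 13.

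**Figure D3:**
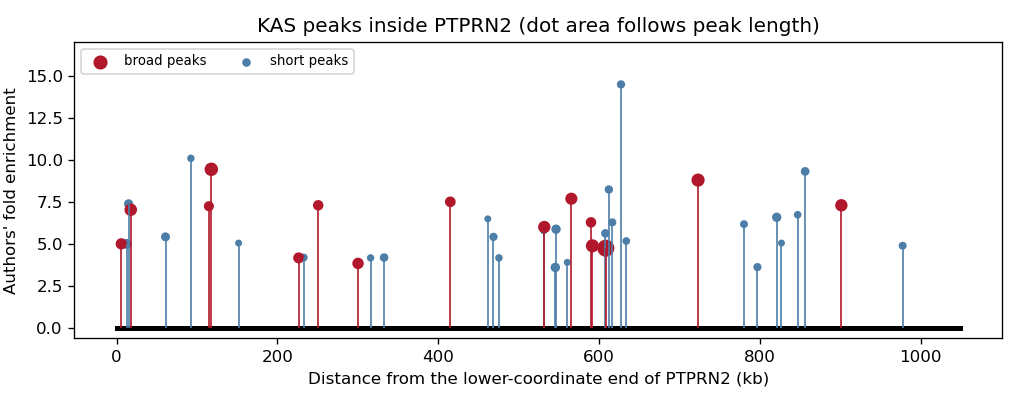
KAS peaks along PTPRN2, placed by distance in kb from the end of the gene with the lower coordinate, with the authors' fold enrichment as height and dot area following length. The 15 broad peaks (red) and 27 short peaks (blue) are spread over most of the gene, and the highest fold, 14.5, belongs to a short peak.

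SLC1A7, a glutamate transporter gene of only 55.5 kb, showed the opposite arrangement. It held 5 broad peaks and 1 short peak, and all 5 broad peaks lay in 5.53 kb, of which they covered 68.4%, with gaps of 225 to 964 bases. Their folds were between 5.01 and 7.25 and their pileups between 9 and 13 reads. SLC1A7 is 53.1 Mb from a chromosome end, so position near an end is not shared by every gene with many broad peaks.

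NSMCE2, which encodes a SUMO ligase of the SMC5/6 complex, held 8 broad and 43 short peaks. It lies on the distal long arm of chromosome 8, near MYC, a region known to be amplified in HL-60 cells. Its broad peaks had pileups of 27 to 41 reads but folds of only 3.25 to 5.27. The quotient of the pileup plus 1 and the fold grows with the peak caller's local background and is called the implied background here. It was 7.01 to 8.91 in the broad peaks of NSMCE2, against a median of 1.94 over all 845 broad peaks. The part of copy number in the count of NSMCE2 peaks was not tested.

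The other genes with most broad peaks were SORCS2, a sorting receptor gene (5), and HIVEP3, a zinc finger factor gene (4). KCNG2, a modifier of voltage-gated potassium channels, CDH4, a cadherin, DPP6, an accessory subunit of potassium channels, and TNS1, a focal adhesion protein, held 4 each. TAFA5 held 3, like 21 other genes, and is named because its 3 peaks have the largest summed length, 4695 bases. All broad peaks of KCNG2, CDH4, DPP6 and TAFA5 lay within 5 Mb of a chromosome end, and none of those in SORCS2, HIVEP3 and TNS1 did. In KCNG2 they lay at 0.377 to 0.435 Mb from the end of chromosome 18, with folds of 5.94 to 7.51. In SORCS2 they lay at 7.34 to 7.68 Mb, with folds of 4.14 to 11.9. In TNS1, which held 1 short peak, the strongest broad peak had a fold of 11.5 and a pileup of 32.

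Broad peaks lay near chromosome ends far more often than short peaks did. Within 5 Mb of an end lay 272 of 845 broad peaks, or 32.2% (exact 95% interval 29.0% to 35.5%), and 1827 of 13996 short peaks, or 13.1% (12.5% to 13.6%). The odds ratio was 3.16 (2.70 to 3.69), with an adjusted p of 8.67e-43 by Fisher's exact test, two-sided, with Benjamini-Hochberg adjustment over 5 tests. The chromosome end is here the outermost annotated gene or peak. The test counts peaks of 1 library that often lie in groups, so its p is too small, and the sizes carry more than the p.

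The broad share changed by steps along the arm. It was 13.6% in the outer 1 Mb (76 broad and 484 short peaks) and 16.0% from 1 to 2 Mb (65 broad and 340 short), and these intervals overlapped. It was 11.6% from 2 to 5 Mb, 7.50% from 5 to 10 Mb and 4.91% from 10 to 20 Mb. Beyond that it was level, at 3.87% from 20 to 50 Mb and 3.78% over 50 Mb (interval 3.14% to 4.51%). Per Mb of gene interior, broad peaks had a density of 3.65 in the outer 1 Mb and 0.328 over 50 Mb from an end, a ratio of 11.1. Short peaks had densities of 23.3 and 8.36 in the same places, a ratio of 2.78. Both kinds were denser near ends, and broad peaks more so.

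**Figure D4:**
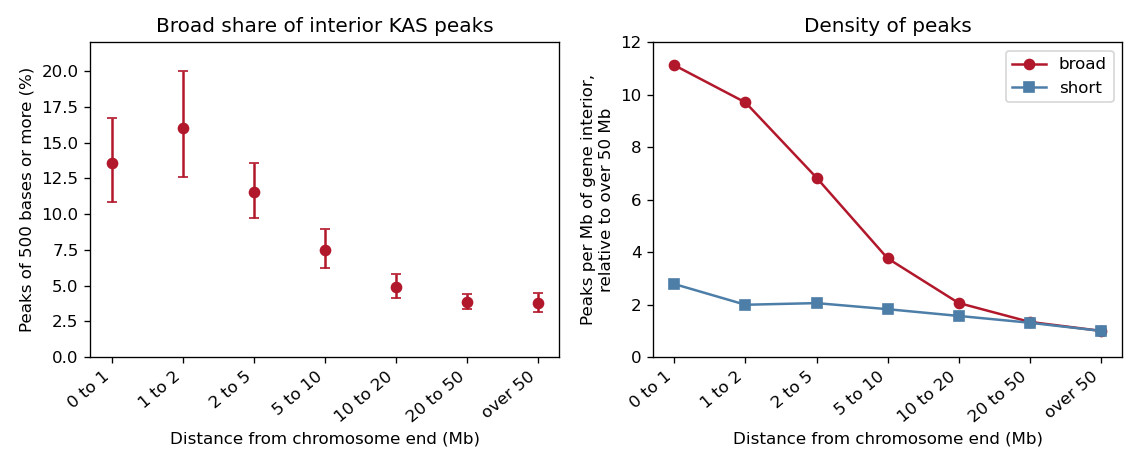
Left, share of KAS peaks with 500 bases or more (%, with exact 95% intervals) by distance of the summit from the chromosome end in Mb; right, peaks per Mb of gene interior relative to the density over 50 Mb from an end, for broad peaks (red) and short peaks (blue). The broad share is 13.6% in the outer 1 Mb and 3.78% over 50 Mb away, and the density ratio of the outer 1 Mb is 11.1 for broad and 2.78 for short peaks.

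Longer broad peaks were nearer to ends. Of the 371 peaks of 500 to 599 bases 24.3% lay within 5 Mb, of the 73 peaks of 1000 to 1499 bases 47.9%, and of the 21 peaks of 1500 to 1999 bases 61.9%. Of the 8 peaks of 2000 bases or more, 4 did. The share within 5 Mb thus grew with length up to 2000 bases, where few peaks remain.

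Most chromosomes showed the same direction. Of 21 chromosomes with at least 20 peaks on each side of 5 Mb, 20 had the higher broad share within 5 Mb. It was 25.7% near the ends of chromosome 21, against 2.75% farther in, and 23.7% near those of chromosome 2, against 3.86%. The exception was chromosome 3, with 1 broad peak among 51 near its ends (1.96%) and 2.57% farther in. With fewer peaks near their ends, chromosome 15 (0 broad of 15 near, 5.23% farther in) and X (0 of 9 near, 2.17% farther in) also went the other way, so 20 of 23 chromosomes with peaks on both sides had the higher share near ends. On chromosome 19 the shares were 8.01% near the ends and 6.91% farther in, the highest share away from ends. Leaving out each of chromosomes 1 to 22 in turn gave differences between broad and short peaks of 18 to 20.8 percentage points, where the whole set gave 19.1.

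**Figure D5:**
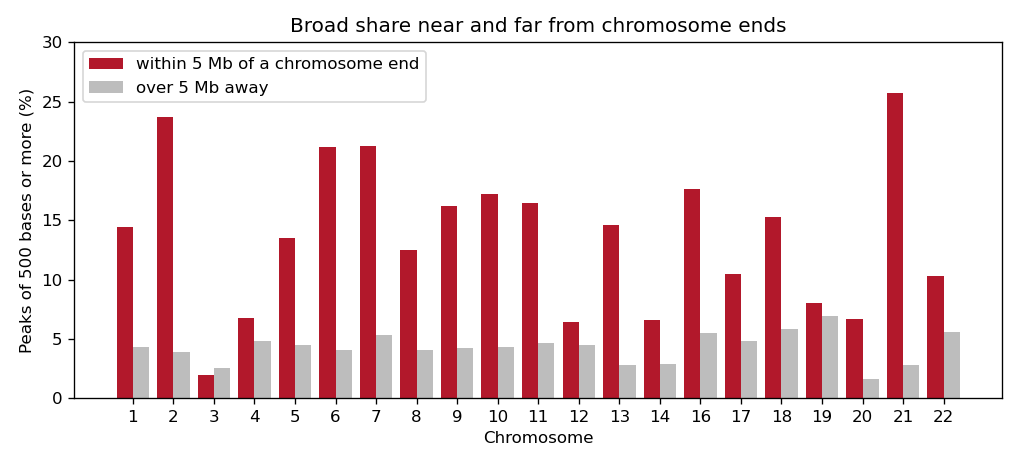
Share of interior KAS peaks with 500 bases or more (%) within 5 Mb of a chromosome end (red) and over 5 Mb away (grey), for the 21 chromosomes with at least 20 peaks on each side. The red bar is the taller one on 20 of them; on chromosome 3 it is 1.96% against 2.57%.

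Peak height moved with the same position. Broad peaks within 5 Mb had a median pileup of 14 reads and a median implied background of 2.02, and those farther away had medians of 12 reads and 1.93. Where the whole set differed by 19.1 percentage points, broad and short peaks with a pileup of 8 to 12 reads differed by 13.4 points (adjusted p of 1.75e-12 by Fisher's exact test), and those with an implied background of at most 2 by 17.9 points. Both ranges were chosen after seeing the data and do not match heights within them. The part of GC content or repeats in this difference was not tested, because it needs a genome sequence.

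A contrast in the same direction was seen outside the interiors of protein-coding genes. Peaks in no gene were broad in 13.5% of cases within 5 Mb of an end and in 9.47% farther away. Peaks inside genes of other types were broad in 13.7% within 5 Mb and in 6.17% farther away. Near ends of protein-coding genes the shares were 7.20% and 4.90%, with overlapping intervals. Inside protein-coding genes they were 12.96% and 4.50%. Whether the contrast differs between these places was not tested.

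In 1 Mb windows, 481 held a broad peak and 292 of those held exactly 1. The fullest held 8 each: both windows across PTPRN2, the window of NSMCE2, and the window from 137 to 138 Mb of chromosome 9, with CACNA1B, EHMT1, EXD3 and PNPLA7. Windows with 7 were at 3 to 4 Mb of chromosome 1 (ARHGEF16, MEGF6, PRDM16, TP73), at 0 to 1 Mb of chromosome 16, at 79 to 80 Mb of chromosome 18 (KCNG2, NFATC1) and at 3 to 4 Mb of chromosome 19. A further KAS peak lay within 1 kb of 19.1% of broad peaks (16.5% to 21.9%) and of 7.15% of short peaks (6.73% to 7.59%), and the median gap was 8.59 kb and 15.0 kb. Broad peaks were thus more often beside another peak. Peaks of both kinds were denser near chromosome ends, where broad peaks lay more often. The parts of position and of longer regions cut up by the peak caller were not tested.

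By the size of the host gene the groups did not differ past the threshold. Genes over 100 kb hosted 49.2% of broad peaks (45.8% to 52.7%) and 49.6% of short peaks (48.8% to 50.5%), with an odds ratio of 0.984 (0.854 to 1.13) and an adjusted p of 0.896 by Fisher's exact test. With peaks from 400 bases counted as broad the difference was −3.04 percentage points and passed, with an adjusted p of 0.0283. The broad share of peaks ranged between 5.03% in genes of 50 to 100 kb and 6.34% in genes up to 20 kb, with no steady trend. Longer genes held a broad peak more often, 14.5% of genes over 1000 kb and 0.841% of those up to 20 kb.

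Summits that also lay inside another annotated gene numbered 66 among broad peaks (7.81%) and 1124 among short peaks (8.03%), with an odds ratio of 0.970 (0.737 to 1.26) and an adjusted p of 0.896. Most such genes under broad summits were lncRNAs (45), and 15 broad summits lay in more than 1 protein-coding gene. None of 1562 miRNA hairpins in the RefSeq table shared a base with a broad peak. On chromosome 19 lay 10.7% of broad peaks and 8.34% of short peaks, an odds ratio of 1.31 (1.03 to 1.65), which had an unadjusted p of 0.0219 and an adjusted p of 0.0547 by Fisher's exact test. The difference of 2.31 percentage points did not pass. It turned to −0.631 points with peaks from 1000 bases counted as broad (adjusted p of 1) and passed from 400 bases at 2.78 points (adjusted p of 0.000371). It also passed in a pair of settings chosen after seeing the data, at 4.27 points over 5 Mb from chromosome ends (adjusted p of 0.00184) and at 2.49 points without PTPRN2 (adjusted p of 0.0370).

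Along the gene, the broad share was 4.68% in the first 20% of the gene (3.89% to 5.58%), 5.14%, 4.97% and 6.22% in the next 3 steps of 20%, and 6.86% in the last (5.81% to 8.04%). The direction of transcription was known for 658 of 814 broad peaks outside chromosome 8. Broad peaks thus lay slightly more often towards the 3′ end of their genes, a description given without a test.

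The thrombin pulldown hardly met these peaks. Of the 845 broad peaks, 1 had its summit in a pulldown peak (0.118%, interval 0.00300% to 0.658%), as did 4 of the 13996 short peaks (0.0286%, 0.00779% to 0.0732%). The adjusted p was 0.423 by Fisher's exact test, and the odds ratio of 4.14 had an interval of 0.0841 to 41.9, so counts this low leave a wide range. By library, broad minus short was 0.118, 0.118, 0.0969 and 0.0898 percentage points in replicates 1 to 4. The exact sign-flip p was 0.13, the smallest that 4 libraries allow. The same 1 broad peak was counted in all 4 lists, so these differences do not replicate each other and this p decides nothing. Over all KAS peaks used, 0.707% to 1.48% of summits lay in a pulldown peak.

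The one broad peak lay in SH3RF3, a gene of the SH3 and RING domain family, at chr2:109199340-109199940, in a stretch annotated to RANBP2 as well. It was in all 4 pulldown lists. Its pileup of 199 reads was the highest of all broad peaks, with a fold of only 4.66 and so an implied background of 42.9, the highest among broad peaks. When any shared base counts, FOXN3, a forkhead repressor, and PRKCA each add a peak that touched 1 pulldown list. Broad minus short was then 0.326 percentage points, with 3 broad and 4 short peaks, and passed the threshold with an adjusted p of 0.0135 by Fisher's exact test; longer peaks have more bases that can be shared. The FOXN3 peak was 1627 bases long with a fold of 10.9. The PRKCA peak was 1136 bases long with a fold of 7.78.

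The gene lists were counted against the background of 3.38% of all protein-coding genes and 8.82% of those over 100 kb. Of 28 neutrophil granule and trap genes none held a broad peak. Any interior KAS peak lay in 7 of them (25%), beside 33.5% of all protein-coding genes. Of 24 myeloid transcription factor and receptor genes, SPI1, a master regulator of myeloid cells, held one of 1060 bases with a fold of 5.70. At the background share of 3.38% about 1 gene of a list of this size would hold a broad peak, so neither count of broad peaks is a result about these genes. The granule and trap list is also partial, since CD177, a neutrophil glycoprotein gene outside it, held a broad peak of 510 bases (fold 5.01). The listed granule and trap genes have a median length of 7.71 kb, against 24.1 kb over all protein-coding genes.

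Of 29 genes of protein kinase C and the response to PMA, which acts on that kinase, 4 held a broad peak, or 13.8%. These were PRKCA, the alpha kinase (fold 7.78), DGKG, a diacylglycerol kinase (7.21), PRKCZ (6.59) and PRKCH (5.62). All 4 were among the 15 list genes over 100 kb, a share of 26.7% beside 8.82% of all genes of that length. Of the 72 interior KAS peaks in this list 5 were broad, or 6.94%, close to the 5.69% of all interior peaks. Neither difference was tested. Of 24 large genes at common fragile sites, 4 held a broad peak, among them AUTS2 (1632 bases, fold 8.76), RORA and SDK1. Any interior KAS peak lay in 22 of the 24 (91.7%), beside 33.5% of all protein-coding genes of any length. All 24 are over 100 kb, so the share of 16.7% stands beside 8.82% of all genes of that length. Of their 157 interior KAS peaks 4 were broad, or 2.55%, beside 5.69% of all interior peaks. None of these differences was tested.

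Of 27 genes listed as coding for mucins or other tandem-repeat proteins, 6 held a broad peak, or 22.2%, beside 3.38% of all protein-coding genes. MUC1, a membrane mucin, held one of 520 bases with a fold of 9.78 in a gene of 7.09 kb. MUC3A held one of 1387 bases with a pileup of 103, and MUC12, its neighbour, one of 823 bases. MUC16 (fold 6.50), MUC2 (5.18) and LOXL2, a lysyl oxidase gene (5.62), held the others. Of the 47 interior KAS peaks in this list 6 were broad, or 12.8%, beside 5.69% of all interior peaks. Of its 4 genes over 100 kb 2 held a broad peak, beside 8.82% of all genes of that length. These differences were not tested, and the list was chosen with earlier results of these data known. In mucins a repeat in the coding sequence is itself the known feature, and whether their peaks lie on it was not tested. LOXL2, on the same list, is not a mucin, and its coding sequence was not checked for tandem repeats. The 22.2% thus describes the list as drawn up.

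Of 20 genes listed for minisatellites near chromosome ends or rich in GC, 12 held a broad peak, and 18.5% of their 205 interior peaks were broad. The strongest were in MCF2L (fold 10.7), RPTOR, a subunit of the mTORC1 kinase complex (10.4), PTPRN2 (9.45), PRKAR1B, a regulatory subunit of protein kinase A (8.96), TSNARE1 (8.49) and CDH4 (8.41). This list was drawn up with broad KAS peaks of some of its genes known, so its count is no independent evidence.

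No broad peak lay in the 24 listed genes for processing of single-stranded DNA and R-loops or the 24 listed genes of coagulation. None lay in the 20 housekeeping genes, the 390 olfactory receptor genes or the 66 protocadherin genes either. The lists of 24 genes are partial. BRCA1 (fold 6.74) and ATR (5.18), DNA damage response genes outside the first list, each held a broad peak. PLG (6.85) and APOH (7.87), genes of plasma proteins outside the second list, did too. At the background share of 3.38%, lists of 24 genes are too small for such counts to be a result about them. The listed coagulation, housekeeping and olfactory receptor genes have median lengths of 15.6, 7.22 and 2.99 kb. The listed single-stranded DNA and R-loop genes have a median of 54.7 kb, and 34 protocadherin genes are over 100 kb. Summits within 1 kb of a gene end were left out, which removes most of a gene as short as an olfactory receptor gene. Any interior KAS peak lay in 10% of the housekeeping, 2.56% of the olfactory receptor and 12.1% of the protocadherin genes, beside 33.5% of all protein-coding genes. With so few interior peaks of any length, the lack of broad peaks in these lists is no result about their genes. Of 509 genes named ZNF, 9 held a broad peak, or 1.77%, led by ZNF713 (fold 9.84), ZNF236 (8.96), ZNF407 (8.71), ZNF668, ZNF574 and ZNF48. Of 386 genes whose names begin with SLC, 14 did, or 3.63%, among them SLC5A4, a gene of the sodium-glucose transporter family (8.84), SLC30A4-AS1, which the annotation lists as protein-coding (8.01), SLC1A7 (7.25), SLC27A4 (6.97) and SLC2A11 (6.74). The SLC share was close to the background of 3.38%.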

How the data were processed

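For each of the 5 libraries analysed, the authors deposited 1 peak table in the layout that MACS2 writes, and the build GRCh38.p13, MACS2 2.2.7.1, Picard 2.27.4, SAMtools 1.6, BWA and bedtools 2.30.0 are listed without settings in the submitters' processing notes. The control used by the peak caller, if any, was not given in the sources used here. The deposited pileup signal is the read height at the summit and is not normalized. The deposited −log10 p and −log10 q come from the authors' peak calling, with the smallest −log10 q at 2.00 in the KAS list. The authors' fold is a ratio of summit height over the caller's background. Deposited lengths and summits were used as given. KAS peak numbers began at 1951, so lower-numbered peaks were not analysed and every share is over the peaks from that number on.

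Summits were placed in a RefSeq GRCh38.p14 gene table with 59716 placed genes, 20050 of them protein-coding; the promoter table adds strand for part of them. Broad and short peaks were compared by Fisher's exact tests, two-sided, with Benjamini-Hochberg adjustment over 5 tests at 0.05, and shares carry exact (Clopper-Pearson) 95% intervals, which cover counting error only. The labels do not say whether pulldown replicates came from separate cultures. The peaks, lists and tests were chosen with earlier results of these data known. Named peaks are the 20 longest, the 20 of highest fold, those of the 10 genes with most broad peaks (ties by summed length), up to 6 genes per list by fold, 5 on each side of the threshold and those in at least 2 pulldown lists. Peaks in FOXN3 and PRKCA that touch 1 list, the windows of 1 Mb and the promoter stretches were chosen after their values were seen. So were the peaks in CD177, BRCA1, ATR, PLG and APOH, genes named only because they lie outside the lists set beside them. Some genes that this rule names are not reported here. The planned tests of summit sequence need a genome and were not run. Python 3.11.15, NumPy 2.4.6, pandas 2.3.3, SciPy 1.17.1 and matplotlib 3.10.9 were used, overlaps were checked against bedtools 2.31.1, and the steps were tested on simulated data.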

Additional observations from a re-analysis of the deposited data

How the results depend on the processing

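The excess of broad peaks within 5 Mb of a chromosome end kept its direction and its side of the threshold under every alternative run (chromosomes left out 1 at a time included), with differences from 10.8 percentage points (2 Mb from the end) to 37.1 (broad from 1000 bases). The broad share of interior peaks was 11.8% from 400 bases, 0.687% from 1000 bases, 9.63% at a −log10 q of 5 or more and 4.50% over 5 Mb from ends, where the last setting was chosen after seeing the data. For host genes over 100 kb, broad minus short passed the threshold from 400 bases at −3.04 points (adjusted p 0.0283), and without passing it was 7.31 from 1000 bases, 0.292 at that q, 0.0974 for genes over 200 kb and 0.0142 without chromosome 19. For chromosome 19 the difference passed at 2.78 points from 400 bases, 4.27 over 5 Mb from ends and 2.49 without PTPRN2, and was −0.631 from 1000 bases; its adjusted p ranged from 0.000371 to 1. Overlap with another gene changed sign at 0.00244 points from 400 bases and 0.155 over 5 Mb from ends, both with an adjusted p of 1. For pulldown peaks the difference passed at 0.326 points when any shared base counts (adjusted p 0.0135), a setting in which longer peaks have more bases to share, and was −0.0339 from 1000 bases, where no broad peak remained in a pulldown peak. Leaving out each pulldown replicate gave 0.0898 to 0.0969 points over peaks and 0.102 to 0.111 by library. The settings without chromosome 19, without other chromosomes, without PTPRN2 or over 5 Mb from ends, and those by host gene size, pileup or implied background were chosen after seeing the data. Where no cause is given, the cause was not tested. No paired analysis was possible because the input libraries that share replicate numbers with the pulldown libraries were not analysed here and KAS has 1 library. Depth is unknown, so a stretch without a broad peak is only one in which none was called.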
